A study of Mus musculus with 2 samples.

Results

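The genes described here encode the acid hydrolases of the lysosome, the proteins of its membrane, and the proteins that deliver its enzymes or control their genes. They were 49 genes, listed by name and found on the array by the gene name of each probe. The list was chosen from measured values of these arrays, with the ratios of its genes between both cell populations known. The members' ratios, the low one of Dnase2a first among them, are therefore given as a description with no test. All 49 were found, on 68 of the 55681 probes that are not controls. The gene table used to name probes lists the accessions of 48.9% of those probes.

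Lysosomes are acidic organelles in which proteins, glycans, lipids and nucleic acids are broken down. Most of their soluble enzymes receive a mannose 6-phosphate tag in the Golgi and are carried to the lysosome by receptors that recognise the tag. A proton pump, the V-ATPase, keeps the interior acidic, and transcription factors of the MiT family, TFEB and TFE3 among them, bind promoters of many lysosomal genes. Secreted cathepsins also cut extracellular matrix and have long been studied in breast tumors.

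The RNA came from 4T1, a mouse mammary carcinoma line of BALB/c origin, grown in culture with no treatment. Cells were sorted with the ALDEFLUOR reagent, which becomes fluorescent where aldehyde dehydrogenase (ALDH) is active, into an ALDH-positive population, which the labels call cancer stem cells, and an ALDH-negative one, which they call anti cancer stem cells. Total RNA of each population was labelled with Cy3 and hybridised to 1 Agilent array. With 1 array per population there is no replicate, so no test and no SD between samples can be given, and any feature of one dish, sort or hybridisation cannot be told apart from the ALDH status. All sorted cells came from 1 cell line.

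Values are normalized signals, brought to a common distribution on both arrays and given with ALDH-negative cells first, and log2 ratios of ALDH-positive over ALDH-negative. The error given with a ratio is the one that the scanner software assigns to both spots, about 0.20 on the log2 scale for a bright probe and more for a dim one. A probe counted as measured when the software called it well above background on at least 1 array. A gene was called higher with a Z-score of at least 2.0 and a ratio of at least 1.5, and lower with a Z-score of at most -2.0 and a ratio of at most 0.75, where the Z-score sets a log2 ratio against the mean and SD of its 250 neighbours in brightness on each side. These limits select genes and do not test them. The brightest measured probe stood for each gene. Of the 49 members 47 were measured, on 63 probes.

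Several values below are read beside the sequence of their probe, so these stretches are shown first. Each is 30 bases of a 60-base probe as the array files give it, and capitals mark every base that lies in a run of 15 bases also found in a probe for another gene. The members called lower, Dnase2a and Idua, are shown with Sgsh, whose probe also holds a repeat, and with the further probe of Idua and of Sgsh. The positions are those of the whole probe on the NCBI37 build, and whether they lie in exons or in untranslated parts was not determined.

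Dnase2a, chr8:87435251-87435310, bases 31 to 60: CCTTGTCTCAAAGAAAAGAAGAAGAAGAAA
Idua, brighter probe, chr5:109112893-109112952, bases 1 to 30: CACACACACACACACACACAGAGTCtaaat
Idua, dimmer probe, chr5:109113517-109113576, bases 1 to 30: cccaaatgactctagcttgtaataaactga
Sgsh, brighter probe, chr11:119204865-119204924, bases 16 to 45: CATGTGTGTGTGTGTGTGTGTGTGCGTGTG
Sgsh, dimmer probe, chr11:119204805-119204864, bases 1 to 30: cttcctactcctCCTTATGGAAGTGTGaaa

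The brighter Idua probe opens with a run of CA units, the brighter Sgsh probe holds a run of GT units, and the Dnase2a probe ends in GAA units. The dimmer probes of Idua and Sgsh hold no such run. Of the 63 measured member probes, 43 shared no run of 15 bases with a probe for another gene, 15 shared one with 1 to 3 other probes, and 5 with 4 or more.

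The lysosomal genes as a set lay close to a ratio of 1. None of the 47 measured members was called higher, where 1.35% of the 14199 measured genes with a symbol were. Lower calls went to 2 members, Dnase2a and Idua, which is 4.26% of the measured members against 2.06% of all measured genes. The median log2 ratio of the members was 0.06, against 0.05 for all measured genes, and their quartiles were 0.00 and 0.18, against -0.08 and 0.18. A log2 ratio above 0 was seen for 35 members, or 74.5%, against 60.4% of all measured genes. For 37 of the 47 members, or 78.7%, the ratio was no farther from 0 than its own error, against 66.8% of all measured genes. In these sorted cells, fewer cells expressing a gene and less RNA per cell cannot be told apart.

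A log2 ratio of at least 0.322 was reached by 4 members, Ctsk, Cd68, Npc1 and Sgsh, where 12.7% of all measured genes reached it. Tfeb and Fuca2, both at 0.32, lay just under it. At the other end, only Dnase2a and Idua lay at or below -0.322, where 8.36% of all measured genes did. The members thus passed these limits in 8.51% and 4.26% of cases.

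**Figure D1:**
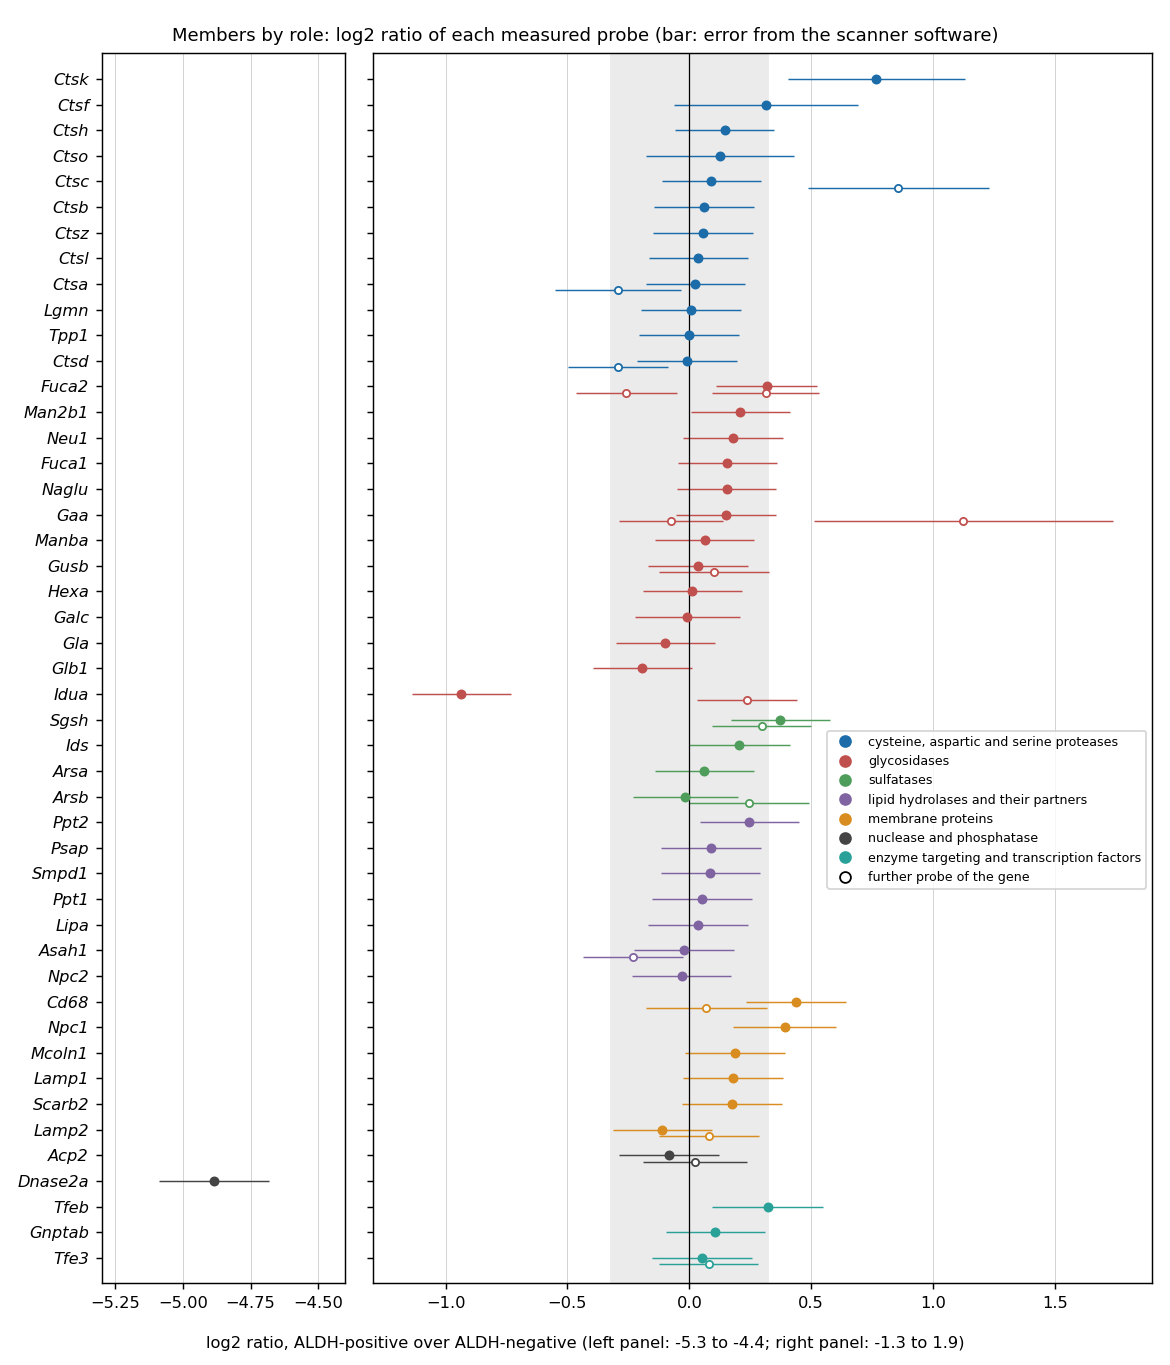
Log2 ratio (x axis, ALDH-positive over ALDH-negative, 1 array each) of every measured probe of the 47 measured members, by role; filled points are the probe that stands for the gene, open points further probes, bars the scanner software's error, and the grey band log2 ratios between -0.322 and 0.322. Nearly all filled points lie in the band, Idua lies at -0.94 with its further probe at 0.24, Dnase2a stands alone in the left panel at -4.88, and the open Gaa point at 1.12 was measured on 1 array only.

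Dnase2a encodes deoxyribonuclease II alpha, the acid endonuclease that degrades DNA in lysosomes. Its single probe gave a normalized signal of 14544 in the ALDH-negative population against 492 in the ALDH-positive one. That is a log2 ratio of -4.88 (error 0.20, Z-score -26.0), or 29.5-fold lower in ALDH-positive cells. Of 25901 probes that were well above background on each array, it had the lowest log2 ratio, and the next lowest was -3.48.

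The low value was already present in the scanner's own numbers. Before normalization the processed signal was 12136 and 585, a log2 ratio of -4.38, while the median over all measured probes was 0.49. In ALDH-negative cells the mean of the spot's 40 pixels was 13601 and their median 13580. In ALDH-positive cells the mean of 43 pixels was 709 and the median 698. Mean and median pixel thus differed little on both spots, and neither spot carried an outlier flag. The probe had 1 spot per array, and 0 spots other than controls were flagged as non-uniform on either array. The absence of a flag therefore says little about this value.

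The repeated end of the Dnase2a probe was compared with other probes that carry the same letters. Of the 28 probes for other genes that share a run of 15 bases with it, 26 were measured, with a median log2 ratio of -0.37 and a lowest of -0.71, and 8 of them were called lower. The 49 measured probes on the array with 5 or more GAA units in a row, a longer repeat than that of the Dnase2a probe, had a median of -0.42 and also reached no lower than -0.71. Bases 3 to 29 of the Dnase2a probe recur, with up to 4 mismatches, in 6 probes of other genes, and these had log2 ratios between -0.30 and -0.07. The Dnase2a probe thus lay more than 4 log2 units below each of these measured probes. Measured probes of other genes within 30 kb on the chromosome, 5 in number, lay between -0.28 and 0.71. They were for Gcdh, Klf1 and Mast1. The Gcdh probe gave 297 and 361, while those of Klf1 and Mast1 were dim, with signals between 23.3 and 90.8. No second probe for Dnase2a was on the array, so the value rests on 1 spot per population.

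Idua encodes alpha-L-iduronidase, which removes iduronic acid from heparan and dermatan sulfate. Its brighter probe gave 6675 in the ALDH-negative population against 3489 in the ALDH-positive one, a log2 ratio of -0.94 (error 0.20, Z-score -4.39). Its dimmer probe, whose start lies 624 bases further along chromosome 5, gave 334 and 394, a log2 ratio of 0.24 (error 0.21). Both probes of the gene therefore pointed in opposite directions by more than their errors.

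The brighter Idua probe lay at the median of probes that hold the same repeat. Of the 40 probes for other genes that share a run of 15 bases with it, 38 were measured, and their median log2 ratio was -0.94. Of all probes on the array with 8 or more CA units in a row, 32 for other genes were measured, and all 32 were called lower, with a median of -0.93 and a range from -1.18 to -0.42. These probes carry 32 different names. With the Idua value read from the dimmer probe, which shares no such run with any other probe, the gene was not called lower.

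Sgsh, the sulfamidase that removes sulfate from heparan sulfate, likewise lay at the median of its repeat, on the other side of 0. Its brighter probe gave 26948 in the ALDH-negative population against 34915 in the ALDH-positive one, a log2 ratio of 0.37 (error 0.20, Z-score 2.07), short of the ratio limit. The 90 other probes that share a run of 15 bases with it were all measured and had a median of 0.37. On the array, 70 measured probes for other genes held 8 or more GT units in a row, with a median of 0.37 and a range from -0.05 to 0.53. The dimmer Sgsh probe, 60 bases away, gave 1232 and 1512, a log2 ratio of 0.30 (error 0.20). Here both probes pointed the same way.

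**Figure D2:**
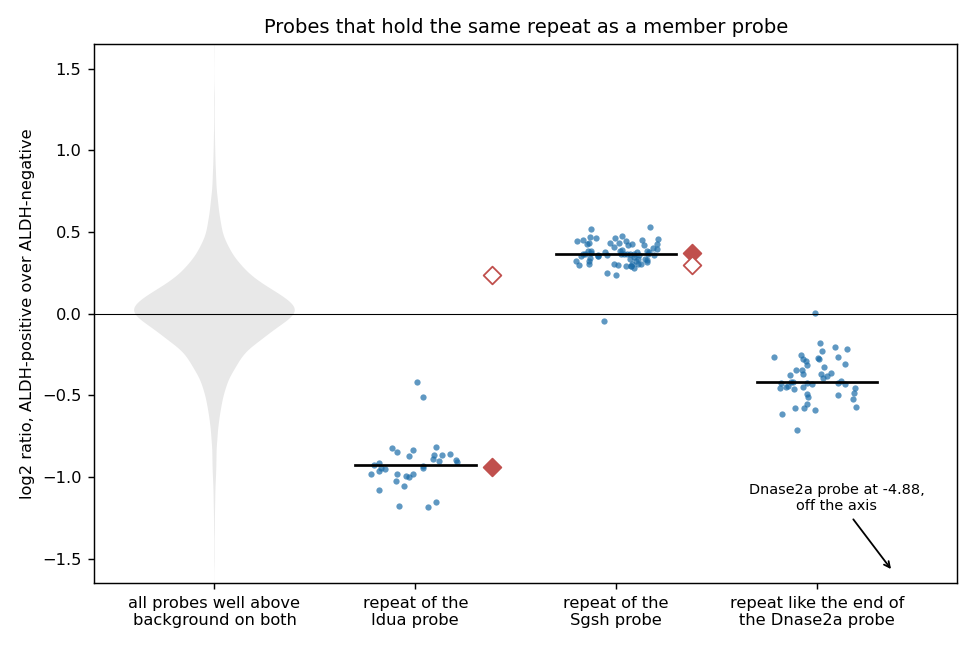
Log2 ratios (y axis) of all probes that were well above background on each array (grey outline, whose tails run beyond the axis) and of measured probes for other genes that hold the repeat of the Idua or Sgsh probe, or a longer form of the repeat at the end of the Dnase2a probe (blue points, black line at the median); red diamonds are the member's brighter probe (filled) and further probe (open). The filled diamonds of Idua and Sgsh lie on the medians of their repeats, -0.93 and 0.37, while Dnase2a at -4.88 lies far below the median of -0.42 beside it.

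Among the proteases, 12 of 14 were measured, 10 lay above 0 on the log2 scale and none was called in either direction. The group median was 0.06. Ctsl, a cysteine endopeptidase, gave 83898 and 86092, a log2 ratio of 0.04. Ctsb, which also trims proteins from their end, gave 17466 and 18211, a log2 ratio of 0.06. Ctsh, an aminopeptidase, gave 23169 and 25605, a log2 ratio of 0.14. These differences were all smaller than the error of 0.20.

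Ctsk, the collagen-cleaving cathepsin known from osteoclasts, had the highest log2 ratio of any member, 0.77, but from dim spots. It gave 19.2 and 32.7 (error 0.36, Z-score 1.07), and its log2 ratio was 0.17 under normexp background correction. Ctsf gave 16.5 and 20.5, a log2 ratio of 0.31 (error 0.38). Ctso gave 24.9 and 27.2, a log2 ratio of 0.13 (error 0.30). Ctsf and Ctso lay within their errors of 0, while Ctsk exceeded its error.

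For the other proteases the populations were near equal on the brighter probe. Ctsd, the main aspartic protease, gave 11489 and 11419, a log2 ratio of -0.01, while its dimmer probe gave 1176 and 960, a log2 ratio of -0.29. Ctsa, the carboxypeptidase that protects beta-galactosidase and neuraminidase, gave 14990 and 15252, a log2 ratio of 0.02, and its dimmer probe gave 49.7 and 40.5, a log2 ratio of -0.29 (error 0.26). Ctsc, which activates granule serine proteases, gave 783 and 833, a log2 ratio of 0.09.

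The second Ctsc probe was dim, at 15.5 and 28.2, with a log2 ratio of 0.86 and an error of 0.37. Ctsz, Lgmn and Tpp1, which encode a carboxypeptidase, an asparaginyl endopeptidase and a tripeptidyl peptidase, had log2 ratios of 0.06, 0.01 and 0.00. Ctse and Ctss, cathepsins typical of gastric and antigen-presenting cells, were not well above background on either array and have no ratio.

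All 13 glycosidases were measured, and 9 had a log2 ratio above 0. Idua was the only one called, and the group median was 0.06, or 0.15 without the probes of Idua and Gla that share a run of 15 bases with 4 or more others. Gla, the alpha-galactosidase deficient in Fabry disease, gave 154651 and 144501, a log2 ratio of -0.10. Its probe shares such a run with 4 others, whose median was -0.13. Glb1, the beta-galactosidase read in the senescence stain, gave 2292 and 2005, a log2 ratio of -0.19 (error 0.20).

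Fuca2, an alpha-fucosidase, had 3 measured probes that did not point the same way. The one that stood for the gene gave 188 and 235, a log2 ratio of 0.32 (error 0.21). Another gave 79.2 and 98.3, a log2 ratio of 0.31, and the last gave 208 and 174, a log2 ratio of -0.26. Man2b1, the acid alpha-mannosidase, gave 3032 and 3504, a log2 ratio of 0.21 that just exceeded its error. Gaa, which degrades lysosomal glycogen, gave 4262 and 4730, a log2 ratio of 0.15, and its second probe lay at -0.08.

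The third Gaa probe was the only member probe measured on a single array. It gave 7.66 in ALDH-negative cells, not well above background, and 16.7 in ALDH-positive cells. Set against 13.1, the lowest normalized signal well above background in ALDH-negative cells, this is at least 1.27-fold higher in ALDH-positive cells, which is only a bound. Gusb, the beta-glucuronidase often used as a reference gene, gave 6035 and 6184, a log2 ratio of 0.04, and 0.10 on its dimmer probe. The remaining glycosidases, Neu1, Naglu, Fuca1, Manba, Hexa and Galc, lay between -0.01 and 0.18, each within its error.

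The 4 sulfatases had a median log2 ratio of 0.13 and none was called. Beside Sgsh, Ids, which removes sulfate from iduronic acid, gave 143 and 165, a log2 ratio of 0.20 (error 0.21). Arsa, which acts on sulfatide, gave 6557 and 6841, a log2 ratio of 0.06. Arsb, which acts on dermatan sulfate, lay at -0.02 on its brighter probe and at 0.24 on its dimmer one. Sgsh, Ids, Idua and Naglu act along the same path of heparan sulfate breakdown. Apart from the repeat probe of Idua, their log2 ratios all lay between 0.15 and 0.37.

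The 7 lipid hydrolases and their partners had a median of 0.05, and 5 lay above 0. Ppt2, a thioesterase, gave 525 and 623, a log2 ratio of 0.25 (error 0.20). Psap, the precursor of the saposins that present lipids to their hydrolases, gave 7618 and 8097, a log2 ratio of 0.09. Smpd1, the acid sphingomyelinase, gave 3107 and 3299, also 0.09. Ppt1, Lipa, Asah1 and Npc2 lay between -0.03 and 0.05, so acid lipase, acid ceramidase and the soluble cholesterol carrier were near equal. The dimmer Asah1 probe lay at -0.23 with an error of 0.20.

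The membrane proteins had the highest median of the larger role groups, 0.18 over 6 genes, 5 of them above 0. Cd68, a heavily glycosylated protein best known from macrophages, gave 762 and 1032, a log2 ratio of 0.44 (error 0.20, Z-score 2.34). It did not reach the ratio limit, and its dimmer probe gave 44.1 and 46.2, a log2 ratio of 0.07 (error 0.25). Npc1, the cholesterol exporter, gave 101 and 132, a log2 ratio of 0.39 (error 0.21).

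The other membrane proteins differed less. Lamp1 gave 68975 and 78095, a log2 ratio of 0.18. Lamp2, the receptor of chaperone-mediated autophagy in one of its forms, gave 2540 and 2351, a log2 ratio of -0.11, and 0.08 on its other probe. Mcoln1, a calcium channel that responds to lysosomal stress, gave 5451 and 6203, a log2 ratio of 0.19. Scarb2, which carries glucocerebrosidase to the lysosome, gave 315 and 355, a log2 ratio of 0.18. Each was within its error of 0.

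Acp2, the lysosomal acid phosphatase, which was grouped with Dnase2a, gave 226 and 213, a log2 ratio of -0.08. Gnptab, a subunit of the enzyme that adds the mannose 6-phosphate tag, gave 1180 and 1271, a log2 ratio of 0.11. The transcription factor Tfe3 gave 3474 and 3601, a log2 ratio of 0.05. Tfeb gave 60.5 and 75.5, a log2 ratio of 0.32 (error 0.23). Further probes of Tfeb, Mcoln1 and Fuca1 were not well above background on either array.

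**Figure D3:**
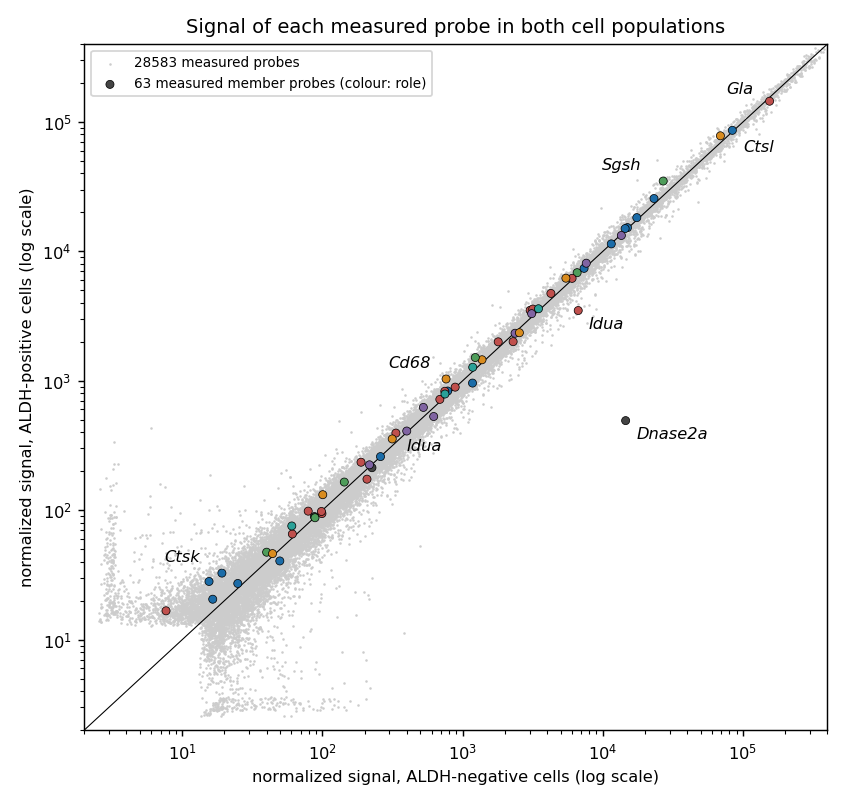
Normalized signal in ALDH-negative (x axis) and ALDH-positive cells (y axis), both on log scales, for 28583 measured probes (grey) and the 63 measured member probes (coloured by role), with the line of equal signal. Members follow the line over the whole range of brightness, and the single point far below it is Dnase2a, at 14544 and 492.

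Of 14 members with more than 1 measured probe, 6 had probes whose log2 ratios differed by 0.3 or more. These were Idua, Gaa, Ctsc, Fuca2, Cd68 and Ctsa. The other 8 agreed more closely than that. In the last eighth of the array's rows or columns lay the probes of 12 members, with a median log2 ratio of 0.10 against 0.06 for the other 35, and whether position contributed was not tested.

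The E-box CACGTG, an element that the clock factor CLOCK is known to bind, is also the core of the site that TFEB and TFE3 bind in lysosomal promoters. RefSeq promoter windows on the GRCm38.p6 build, each from 250 bases before to 50 after an annotated transcript start, were available for 44 of the 49 members, and a gene with several starts counted as holding a motif when any of its windows did. Both strands were searched. CACGTG was present in 13 of the 44, or 29.5%, against 8.09% of 27025 genes with a window and 11.1% of the measured genes among them. GTCACGTG, which contains it, was present in 10 of 44, or 22.7%, against 2.55% and 4.28%. TCACGTGA, the palindrome that overlaps both, was present in 4 of 44, or 9.09%, against 1.12% and 1.96%. Many of these motifs overlap, and a match is a description and not a bound site.

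Stretches that hold the palindrome before a transcript start are shown for these 4 members, 1 copy per gene, with the motif in capitals and the strand of the gene read 5′ to 3′.

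Ctsa, chr2:164833734-164833772, plus strand: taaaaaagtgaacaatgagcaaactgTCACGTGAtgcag
Ctsd, chr7:142387893-142387952, minus strand: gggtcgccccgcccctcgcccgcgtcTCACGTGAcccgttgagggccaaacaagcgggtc
Gla, chrX:134601167-134601226, minus strand: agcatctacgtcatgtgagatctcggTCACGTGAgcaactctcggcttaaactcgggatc
Mcoln1, chr8:3500447-3500506, plus strand: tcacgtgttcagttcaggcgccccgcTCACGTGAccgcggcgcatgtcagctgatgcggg

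Counted from the transcript start of its window, the motif ends at -6 in Ctsa, -92 in Ctsd, -188 in Gla and -39 in Mcoln1. In Ctsa this is a later start that lies inside the gene, which begins at position 164832872. Their log2 ratios were 0.02, -0.01, -0.10 and 0.19. The 13 members with CACGTG were Ctsa, Ctsd, Ctsf, Ctsl, Lamp1, Gla, Glb1, Gaa, Arsa, Lgmn, Naglu, Sgsh and Mcoln1, with a median log2 ratio of 0.06 and a range from -0.19 to 0.37. The 30 measured members whose window lacks it had a median of 0.07. Over all measured genes the medians were 0.03 with the motif, for 1229 genes, and 0.05 without it, for 9795. Members with and without the E-box thus had near equal ratios, and so did genes at large.

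Other genes of the pathway gave a similar picture. Of 21 V-ATPase subunits, 19 were measured, 18 lay above 0 and none was called, with a median log2 ratio of 0.08. Of all measured genes 60.4% lay above 0. Only Atp6v0d1, Atp6v0e2, Atp6v1f and Atp6v1g2 lay farther from 0 than their errors. Atp6v1f, a peripheral subunit, gave 28504 and 34985, a log2 ratio of 0.30 (error 0.20). Atp6v1g2 was highest at 0.68, from signals of 16.2 and 26.0. Of 11 sorting receptors and phosphotransferase genes all were measured, none was called and the median was 0.08. Sort1 lay at -0.38 on its brighter probe and at 0.64 on its dimmer one.

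Of 18 MiT, Ragulator and Rag genes, 15 were measured with none called and a median of 0.09. Of 18 autophagy genes all were measured, none was called, and the median was 0.11, with Atg9a highest at 0.54 and Sqstm1, the cargo receptor p62, lowest at -0.21. Among 33 further lysosomal proteins 29 were measured, with a median of 0.04, 2 called higher and 1 lower. Ctns, the cystine exporter, gave 596 and 943, a log2 ratio of 0.66 (error 0.20). Cpvl, a carboxypeptidase, gave 2.62, not well above background, and 38.5, at least 2.93-fold higher.

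The lower gene was Slc17a5, the sialic acid exporter. Its brighter probe gave 4346 and 2248, a log2 ratio of -0.95 (error 0.20), and shares a run of 15 bases with 40 probes for other genes, as the Idua probe does. Its dimmer probe gave 109 and 88.5, a log2 ratio of -0.30 (error 0.21). Of 10 cathepsin inhibitors 6 were measured, none was called and the median was 0.25, or 0.14 under either other background setting. Their extremes were dim, with Stfa3 at 0.37 (error 0.51) and Stfa2, the only one below 0, at -0.35 (error 0.43), and Cst6 lay at 0.36 (error 0.20). Of 13 cathepsin relatives outside the members 4 were measured. Cts8, a placental cathepsin, was called higher, at 2.93, not well above background, and 87.6, at least 6.67-fold higher. Its probe lies in the last eighth of the array. Ctsw, known from cytotoxic lymphocytes, gave 790 and 1126, a log2 ratio of 0.51 short of the ratio limit. Cts7 was the lowest of these relatives, at 40.9 and 22.3, a log2 ratio of -0.87 (error 0.29). The median of the 4 was 0.28, and -0.42 without the last eighth of the array. The latter value rests only on the dim Cts7 and on Tinagl1, at 0.04, because Ctsw also lies in that eighth.

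**Figure D4:**
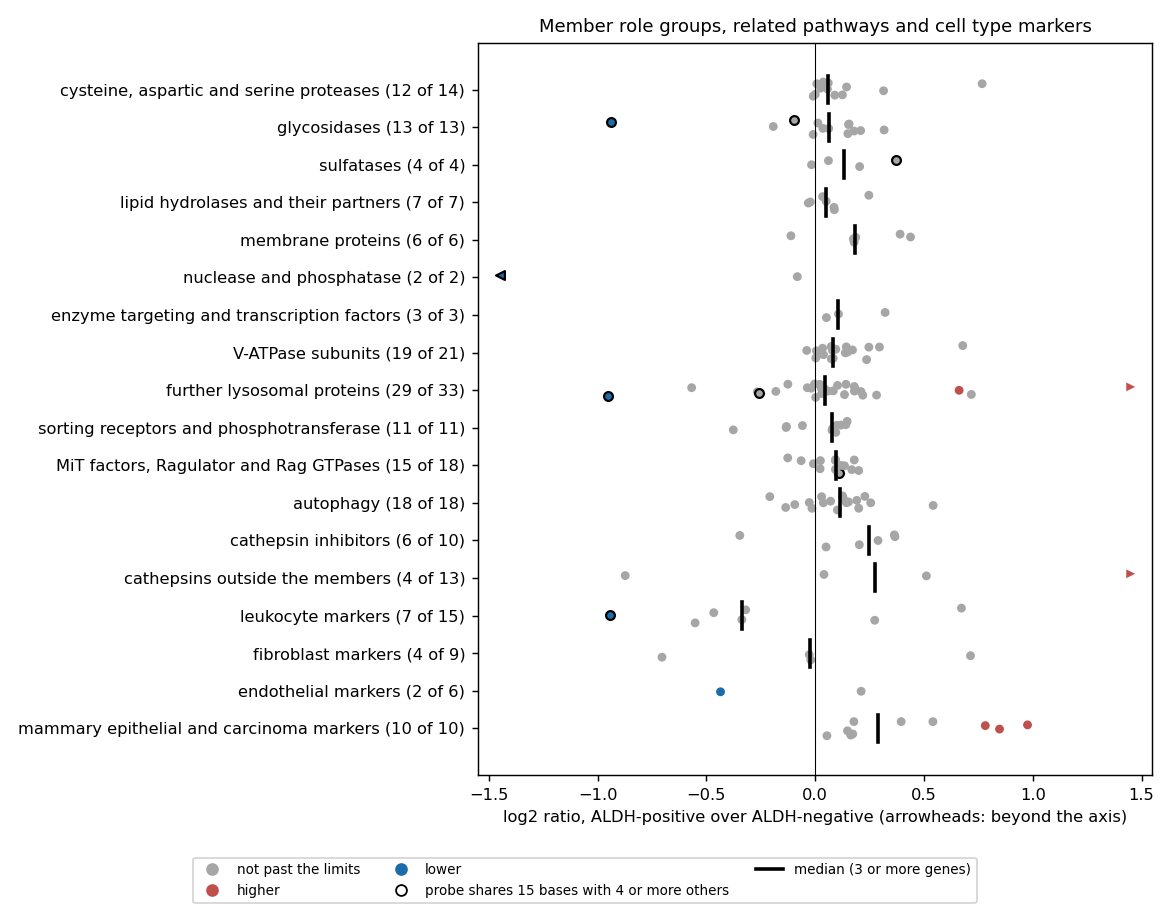
Log2 ratio (x axis) of each measured gene in the member role groups, the related pathways and the cell type markers (y axis, measured of listed genes), with calls by colour, the median as a black bar, and a black outline where the probe shares 15 bases with 4 or more probes for other genes. Medians of the lysosomal lists lie between 0.04 and 0.28 apart from the pair with Dnase2a, and the outlined lower calls are Dnase2a, Idua, Slc17a5 and Itgam.

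Markers of other cells were read beside these genes because Cd68, Ctss, Ctsk, Ctse, Ctsz and Lgmn are strongly expressed in leukocytes. All 10 mammary epithelial and carcinoma markers were measured and lay above 0, and Krt14, Cldn7 and Cldn3 were called higher. Of all measured genes, 60.4% lay above 0 and 1.35% were called higher. Cdh1, Krt8, Krt18, Krt7 and the dim Krt5 lay within their errors of 0, while Epcam, Krt19 and the called markers exceeded theirs. Only 7 of 15 leukocyte markers were measured, their median was -0.34, and Ptprc, Adgre1, Lyz2, C1qa, Tyrobp, Fcgr1, Mrc1 and Itgax were not well above background on either array. The summed signal of the measured ones was 9800 among ALDH-negative and 5917 among ALDH-positive cells. Most of that sum came from 1 Itgam probe, which gave 7301 and 3795, a log2 ratio of -0.94, and shares a run of 15 bases with 48 probes for other genes. On probes that share no such run, Csf1r lay at -0.34 and Cd3e at -0.47 (error 0.20 each). Of the 7 measured leukocyte markers 2 lay above 0, Cd14 at 0.27 (error 0.20) and the dim Aif1 at 0.67 (error 0.46). Of the stromal markers, 4 of 9 for fibroblasts and 2 of 6 for endothelium were measured, and of the endothelial pair Kdr was called lower at -0.43 while Pecam1 lay at 0.21 (error 0.31). The part of other cells in the members' values was not tested.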

How the data were processed

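The authors sorted 4T1 cells by ALDH activity, labelled RNA with Cy3 and hybridised it to Agilent mouse arrays. They read the scans with Feature Extraction, version 9.5.1.1 per the labels and 10.7.1.1 per the file headers. The deposited scanner files hold spot intensity values, background-subtracted and processed by that software, and flags. The deposited value table holds the authors' quantile-normalized intensity values on a linear scale and was used as an alternative. The authors quantile-normalized log2 signals and selected on Z-score and ratio; how they computed the Z-score is not given in the sources used here.

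Here control spots and outlier-flagged spots were left out, spots of a probe were averaged, values under 1 were set to 1, log2 processed signals were quantile-normalized over both arrays, and each gene took its brightest measured probe. Groups came from the labels. No test was run, since each population had 1 array. The single number of arrays limits precision. Of 220 probes printed 10 times, the median SD of a log2 difference between single spots was 0.077. The steps were tested on simulated data. Genes described in full were those past the limits, at either end of the ratios, farthest from 0 in their role group, measured on 1 array, or with probes that differed by 0.3 or more. A listed marker is not reported here. Pathway lists name calls and extremes, and other genes were named after their values were seen. The members and lists were chosen with earlier results of these data known, and runs of 15 shared bases were examined after seeing the values. Python 3.11.15, numpy 2.4.6, pandas 2.3.3 and limma 3.58.1 (normexp, offset 50) were used.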

Additional observations from a re-analysis of the deposited data

How the results depend on the processing

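The counts, the median and the members' values were recomputed with a shift to the 75th percentile in place of quantile normalization, with normexp or no background correction, from the deposited table, with only probes well above background on both arrays, with all probes, with the median over a gene's probes, and without the last eighth of rows or columns. The calls were also made with Z-scores over 100 or 500 neighbours or over all probes and with a limit of 1.5-fold both ways. No member was called higher in any of these. The lower calls were 1, Dnase2a, with the median over probes and with Z-scores over all probes. Members with a log2 ratio of at least 0.322 were 2 under normexp and 2 under no background correction. Without probes sharing 15 bases with 4 or more others, an alternative chosen after seeing the data, the lower calls were 0, members at or below -0.322 were 0, and Idua reversed to 0.24, while Dnase2a and Gla had no probe left. Of 410 recomputed member values, 405 moved by less than their error; Idua (-0.35) and Ctsc (0.47) moved with the median over probes and Ctsk with both background settings. Dnase2a ranged from -4.89 to -4.75. The 75th percentile shift moved the median of all genes to 0.09 and that of the members to 0.14. Of 162 recomputed list medians 17 moved by more than the spread of repeated spots, 7 of them under that shift: the V-ATPase, sorting and MiT lists went to 0.17, autophagy to 0.20, other cathepsins to 0.36, epithelial markers to 0.36 and fibroblast markers to -0.11. The leukocyte median was -0.21 under normexp and -0.17 with no background correction, and that of cathepsin inhibitors was 0.14 under each of these and 0.13 with all probes. Other cathepsins lay at 0.04 with probes measured well on each array, 0.01 with all probes and -0.42 without the last eighth. That last value rests on Cts7 and Tinagl1 alone. Without the probes sharing 15 bases, glycosidases lay at 0.15 and the nuclease and phosphatase at -0.08. Dim members such as Ctsk, Ctsf and Ctso are limited by signal over background. No paired analysis was possible because each population had 1 array.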

Other observations

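Probes with other repeats were also examined. Of 9 measured probes with 8 or more GA units in a row, none of them for a member, all 9 were called lower, with a median log2 ratio of -0.76 and a range from -1.02 to -0.46. Of 10 with 8 or more CT units, 0 were called lower, and their median was -0.07. The 49 with 5 or more GAA units ranged from -0.71 to 0.01, and 22 were called lower. Probes with CA, GA or GAA runs made up 63 of the 587 lower calls among the 25901 probes well above background on each array. Measured probes with these runs numbered only 33, 9 and 49, the Idua probe among them. The probe for AK146780 is counted under both GA and GAA. Before normalization the median log2 ratio was -0.40 for CA runs and 0.90 for GT runs, against 0.49 for all measured probes. Itgam, a myeloid marker, lay at -0.94 on a probe that shares 15 bases with 48 others. Its other measured probes were near background, at 0.38 (error 0.34) and -0.67 (error 0.42), the last not well above background in ALDH-positive cells. Of all measured probes, 5.08% share a run of 15 bases with 4 or more probes for other genes. Why probes with these repeats differed between both arrays was not tested.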
